A study of Mus musculus with 37 samples.

Results

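The genes of the tricarboxylic acid (TCA) cycle and of its carbon supply were followed through the response of macrophages to a Toll-like receptor 4 (TLR4) agonist, with and without the clock gene Arntl. They were 34 of the 24016 genes of the deposited table, taken by symbol from a list of 35 names for enzymes and carriers that was built on their roles, with no rule on measured values. Irg1 and Acod1 on that list are names of 1 gene, which the table calls Irg1. The list falls into 7 roles, namely itaconate synthesis, citrate to 2-oxoglutarate, 2-oxoglutarate to succinate, succinate to oxaloacetate, pyruvate entry, citrate export with the malic enzymes, and carriers with the aminotransferases and glutamate dehydrogenase. All 34 passed the filter on low values and were among the genes analyzed, which were those with a scaled FPKM times transcript length in kb of at least 74.5 in some WT library.

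Bone marrow-derived macrophages (BMDMs) came from male mice aged 6 to 9 weeks, either wild type (WT) C57BL/6J or Arntl-/- on a C57BL/6 background, and were grown with M-CSF for 6 days. Arntl encodes Bmal1, the transcription factor that binds E-box DNA together with Clock, and the deletion is carried by the whole animal and not by macrophages alone. The labels call these cells BmalKO, and the table and the plots Bmal1KO. The text of the study describes the WT mice as littermates, whereas its methods name purchased C57BL/6J mice. Cells were left untreated (0 h) or treated with Kdo2-lipid A (KLA), the part of bacterial lipopolysaccharide that TLR4 recognizes, for 6, 24 or 48 h. PolyA RNA was sequenced in 8 libraries, 1 for each genotype and time, so no difference below has a replicate check and no p-value is given. Values are FPKM as the authors deposited them, per 10000000 reads, divided here by size factors between 0.918 and 1.13. "Rose", "fell", "higher" and "lower" are used of a difference of at least 1.5-fold on the scale log2(scaled FPKM + 0.1), unless values alone are given. The intervals given are at 95% and reflect the number of reads alone.

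The TCA cycle burns acetyl groups in the mitochondrial matrix. Citrate synthase joins them to oxaloacetate, isocitrate and 2-oxoglutarate dehydrogenases release carbon dioxide, and succinate dehydrogenase and fumarase lead back through malate to oxaloacetate. Pyruvate, glutamine and other amino acids feed the cycle, and citrate leaves it for lipid synthesis. In macrophages stimulated through TLR4 the cycle is known to be interrupted after citrate and after succinate. The enzyme encoded by Irg1 turns its intermediate cis-aconitate into itaconate, which inhibits succinate dehydrogenase.

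The libraries held between 8587560 and 27036784 reads on genes, with the fewest in Arntl-/- cells at 48 h and the most in WT cells at 6 h. At the 4 times in order, the scaled FPKM of Arntl in WT was 34.3, 32.3, 35.6 and 38.7, while that in Arntl-/- cells was 13.9, 11.3, 18.8 and 20.2, so every Arntl-/- library lay below every WT library. Nos2, the inducible nitric oxide synthase, went from 11.9 at 0 h to 273 at 48 h in WT cells and from 31.5 to 523 in Arntl-/- cells. Il1b, the interleukin 1 beta gene, was at 46.2, 162, 594 and 428 in WT and at 92.1, 199, 707 and 699 in Arntl-/- cells at the 4 times. Of the 6 analyzed genes of an 8-gene list of KLA responses, 5 rose the same way in both genotypes at 1 or more times. This was true of 10.5% of all genes analyzed. The other, Tnf, was at 508, 631, 468 and 491 in WT and at 605, 785, 522 and 425 in Arntl-/- cells at the 4 times. Of 10 clock genes, 3 were higher and 3 lower in Arntl-/- cells at 2 or more times, against 2.55% of all genes in either direction.

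All 11 macrophage markers measured had over 3 reads in every library, and their summed scaled FPKM ran from 16771 to 39655, both in WT cells, at 6 and 48 h. Beside the members, 12 stromal markers summed over the 4 times to 667, 768, 835 and 1682 in WT and to 500.1, 536, 545 and 961 in Arntl-/- cells, so they stood highest at 48 h in both. Of 9 neutrophil markers, which summed to 1238 to 2885, 4 to 7 had over 3 reads in a library. In both genotypes Mmp8 and S100a8 stood highest at 48 h, while S100a9, Ngp and Ltf stood lowest then. Markers of B cells summed to at most 61.5, of T cells to 15.9, of dendritic cells to 11.4 and of red cells to 6.28, and every red cell marker was at 0 in WT cells at 24 and 48 h. The part of these other cells in the changes of the members was not tested, and in such bulk libraries fewer cells of a type cannot be told apart from less RNA per cell.

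Levels of the members spanned from a mean scaled FPKM of 20.9 for Pcx to 1846 for Irg1 over the 8 libraries. Their median was 279.8 to 314 in the 8 libraries, against 121 to 132 for all genes analyzed, and 26 to 29 of the 34 lay above the median of all genes. Irg1 was the most abundant member in every library. Its lowest value, 1008, exceeded the highest of any other member, 956 for Idh1 in Arntl-/- cells at 48 h. Behind it by mean level came Mdh2, mitochondrial malate dehydrogenase, at 674, Idh1 at 669, glutamate dehydrogenase Glud1 at 562 and the 4 succinate dehydrogenase subunits at 514 to 559, with Idh3b among these at 528. Mdh2 (568 to 799) lay above Sdha (487 to 633) in all 8 libraries, although their ranges overlapped, whereas Idh1 lay below Mdh2 in 5 libraries and above it in 3. At the other end, Me1 (46.1 to 79.3), Suclg2 (27.3 to 59.8) and Pcx (12.5 to 35.5) were the least abundant.

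**Figure D1:**
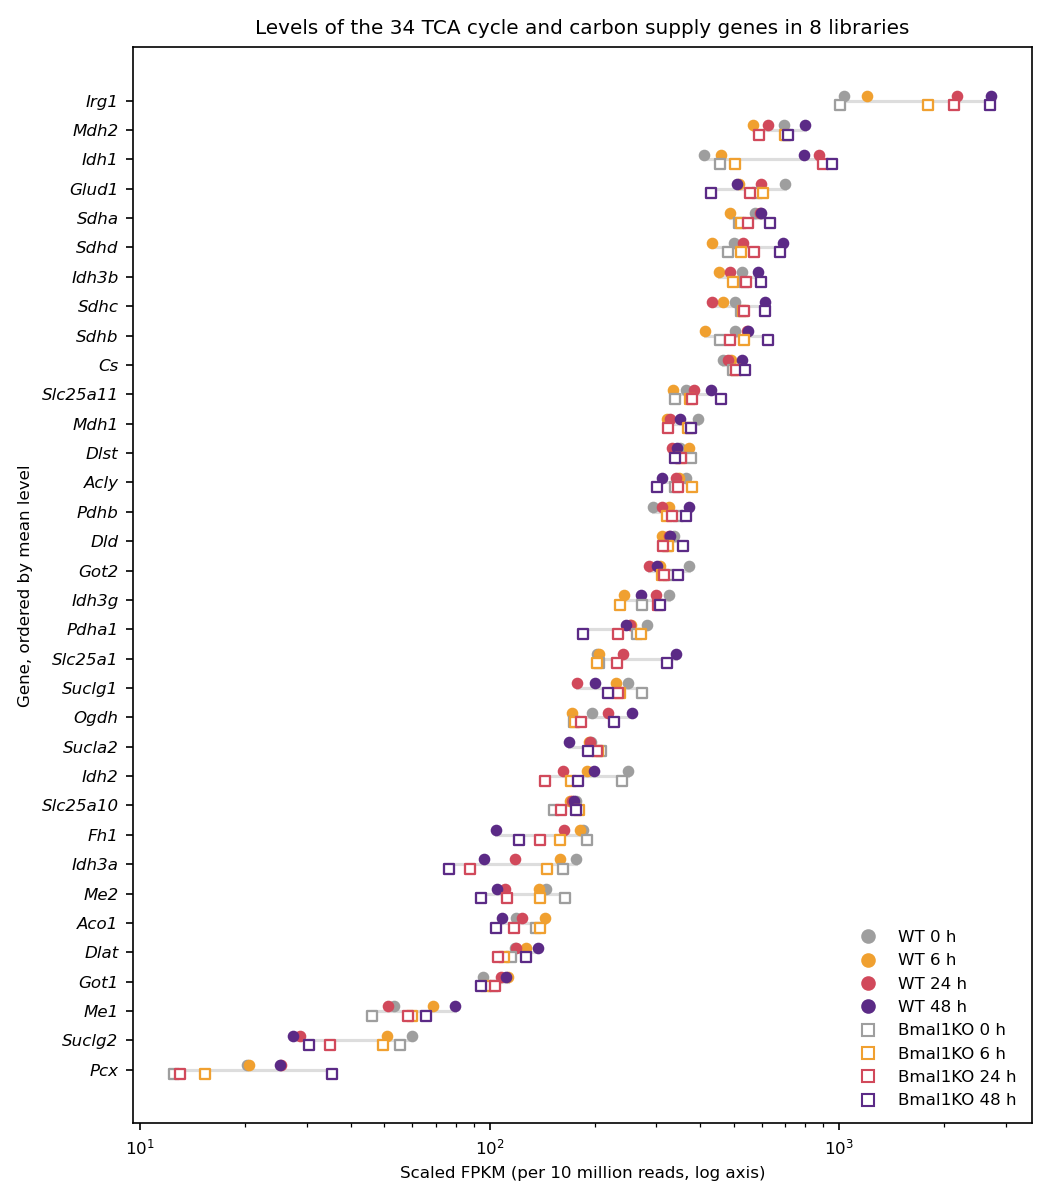
Scaled FPKM (log axis, per 10000000 reads) of the 34 genes in each of the 8 libraries, with WT as filled circles, Arntl-/- (Bmal1KO) as open squares, color for the time after KLA and a grey line from the lowest to the highest value. Irg1 stands to the right of every other gene, and 19 of the 34 genes stay within a 1.5-fold range over all libraries.

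The highest of the 8 values was less than 1.2 times the lowest for 5 of the 34 members, less than 1.5 times for 19 and less than 2 times for 29, beside 3.30%, 38.9% and 74.3% of all genes analyzed. Whether the members differ from all genes in this was not tested. The 5 genes with a wider range were Pcx (2.84-fold), Irg1 (2.70-fold), Idh1 (2.33-fold), Idh3a (2.30-fold) and Suclg2 (2.19-fold). By contrast, the range was under 1.2-fold for Dlst (1.13-fold), Dld (1.15-fold), Cs (1.15-fold), Slc25a10 (1.18-fold) and Got1 (1.19-fold).

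Because Bmal1 binds the E-box, the promoters of the members were searched for its letters, CACGTG, on both strands. RefSeq promoters (build GRCm38.p6, 250 bases before to 50 after the start site) were at hand for 31 members. An E-box stood in a promoter of 3 of the 31, Slc25a1, Pcx and Ogdh, against 8.09% of all 27025 genes with a promoter. The promoters of these 3 and that of Irg1 are shown, since Irg1 and Slc25a1 passed the 1.5-fold line after KLA in both genotypes, Pcx passed it between the genotypes, and Ogdh carries the motif and passed it in no comparison. They lie at chr14:103046762-103047061 (plus strand) for Irg1, chr16:17928170-17928469 (minus strand) for Slc25a1, chr19:4510222-4510521 (plus strand) for the first of 2 promoters of Pcx and chr11:6291920-6292219 (plus strand) for 1 of the 3 promoters of Ogdh, out of 6, that hold an E-box. Each is written 5′ to 3′ on the strand of its gene, with the E-box in capitals.
Irg1: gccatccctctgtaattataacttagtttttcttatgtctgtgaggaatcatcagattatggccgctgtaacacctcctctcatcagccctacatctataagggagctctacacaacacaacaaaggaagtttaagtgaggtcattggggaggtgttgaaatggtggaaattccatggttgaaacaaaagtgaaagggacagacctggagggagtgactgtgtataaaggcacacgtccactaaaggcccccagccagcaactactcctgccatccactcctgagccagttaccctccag
Slc25a1: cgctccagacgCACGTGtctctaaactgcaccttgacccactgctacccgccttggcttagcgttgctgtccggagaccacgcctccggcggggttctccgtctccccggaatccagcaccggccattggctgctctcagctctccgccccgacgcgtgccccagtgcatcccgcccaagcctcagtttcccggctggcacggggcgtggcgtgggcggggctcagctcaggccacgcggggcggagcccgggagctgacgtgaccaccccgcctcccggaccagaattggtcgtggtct
Pcx: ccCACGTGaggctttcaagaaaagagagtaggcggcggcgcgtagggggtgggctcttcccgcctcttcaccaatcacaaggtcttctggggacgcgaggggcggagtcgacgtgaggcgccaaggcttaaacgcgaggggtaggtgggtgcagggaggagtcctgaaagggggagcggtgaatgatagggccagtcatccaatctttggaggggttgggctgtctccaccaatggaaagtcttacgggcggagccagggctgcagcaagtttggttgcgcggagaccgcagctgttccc
Ogdh: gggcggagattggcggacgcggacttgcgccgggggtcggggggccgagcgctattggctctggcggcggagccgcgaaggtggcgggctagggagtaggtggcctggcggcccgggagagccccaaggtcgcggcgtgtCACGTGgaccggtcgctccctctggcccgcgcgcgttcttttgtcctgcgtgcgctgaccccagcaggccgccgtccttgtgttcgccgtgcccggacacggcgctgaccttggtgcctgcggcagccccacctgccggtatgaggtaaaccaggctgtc
The E-box began 239 bases before the start site in Slc25a1, 248 in Pcx and 110 in the Ogdh promoter shown. The other windows of Ogdh with the motif overlap each other and share 1 E-box. No such letters stood in the windows of Irg1 or of the second Pcx promoter. Other searches, also on both strands, found the GC box GGGCGG in 22 of the 31 members (38.2% of all genes), the AP-1 site TGANTCA in 2 (8.97%), the antioxidant response element core TGACNNNGC in 6 (14.0%) and an NF-κB consensus in 8 (7.81%). These motifs may overlap one another, and a match is a description of letters and not of binding.

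After 6 h of KLA hardly any member had changed. In WT cells none was higher, against 4.31% of all genes analyzed, and none was lower, against 3.29%. In Arntl-/- cells 1 was higher, Irg1, against 2.79% of all genes, and none was lower, against 2.58%. At 24 h 2 members were higher and 2 lower in WT cells, beside 7.94% and 7.91% of all genes, and 2 were higher and 3 lower in Arntl-/- cells, beside 7.35% and 8.65%. By 48 h the counts were 3 higher and 3 lower in WT cells, beside 12.7% and 14.3%, and 4 higher and 4 lower in Arntl-/- cells, beside 14.8% and 16.7%. These shares of the members were near those of all genes.

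Changes went the same way in both genotypes, which share no library, for 18 of the 34 members after 6 h, 25 after 24 h and 28 after 48 h. This was true of 50.5%, 76.4% and 79.4% of all genes analyzed. Past 1.5-fold in both genotypes at the same time were 3 members that rose, Irg1, Idh1 and Slc25a1, against 10.5% of all genes, and 4 that fell, Idh2, Idh3a, Suclg2 and Fh1, against 11.4%. Without the 48 h libraries, in which the summed stromal and macrophage markers stood highest, 4 of these 7 remained, since Irg1 and Idh1 had risen and Idh2 and Suclg2 had fallen by 24 h in both.

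**Figure D2:**
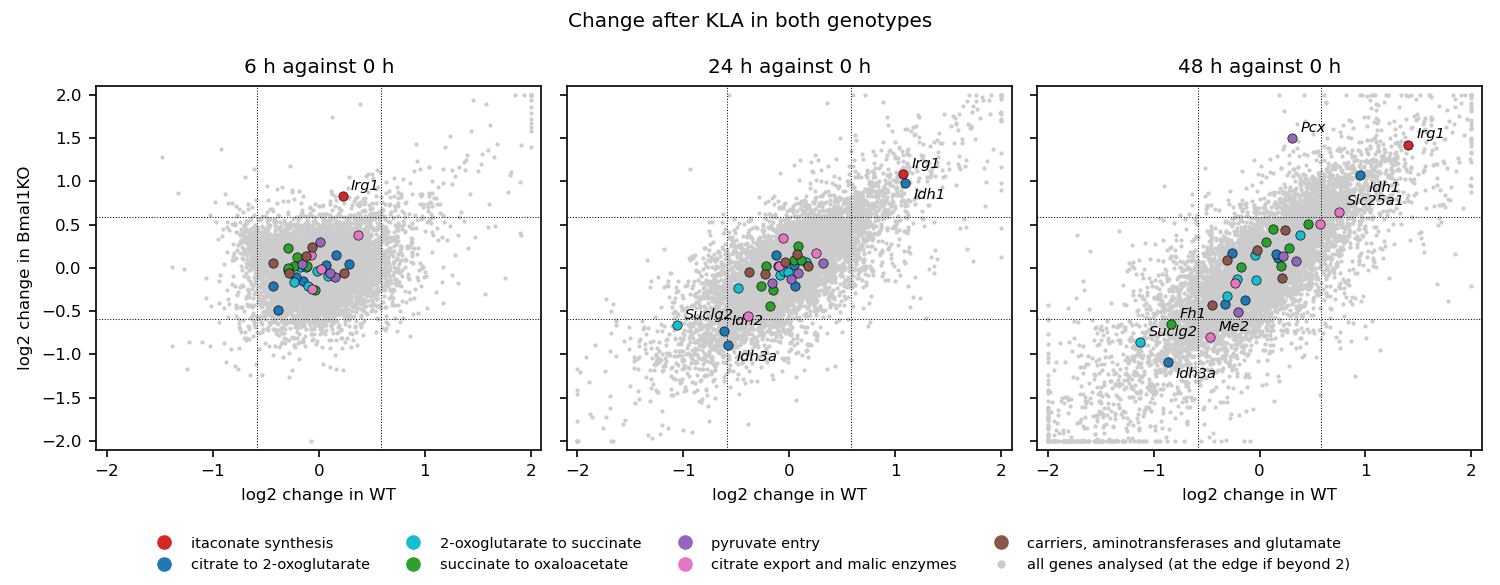
Log2 change from 0 h in WT (x axis) and Arntl-/- cells (y axis, Bmal1KO) at 6, 24 and 48 h, for the 34 members colored by role and for all genes analyzed in grey, with values beyond 2 drawn at the edge. Dotted lines mark 1.5-fold, and members past a line in either genotype are named. At 48 h Irg1, Idh1 and Slc25a1 lie at the upper right, Idh3a, Suclg2 and Fh1 at the lower left, and Pcx above the line in Arntl-/- cells alone.

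Irg1, which encodes the itaconate enzyme aconitate decarboxylase (chr14:103446229-103455790 on mm9, the build of all gene positions given for members), was already abundant without KLA. Over the 4 times its scaled FPKM was 1029.9, 1203, 2173 and 2722 for WT and 1008, 1794, 2137 and 2703 for Arntl-/- cells. The ratio of Arntl-/- to WT was 0.979, 0.984 and 0.993 at 0, 24 and 48 h, and at 6 h the Arntl-/- value lay above that of WT. In WT cells the change from 0 h was 1.17-fold at 6 h (interval 1.13 to 1.2), 2.11-fold at 24 h (2.04 to 2.18) and 2.64-fold at 48 h (2.56 to 2.73). In Arntl-/- cells it was 1.78-fold (1.73 to 1.83), 2.12-fold (2.06 to 2.18) and 2.68-fold (2.60 to 2.76). In each genotype the values at 24 and 48 h lay above those at 0 and 6 h.

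The difference at 6 h was 1.49-fold (1.46 to 1.53), just under the 1.5-fold line, and 202 of all genes analyzed had a higher ratio. It rests on the deepest library. In that library the 11 macrophage markers summed to 16771 against 22498 in Arntl-/- cells at 6 h, and the 9 neutrophil markers to 1238 against 2130. The 12 stromal markers went the other way, at 768 against 536. The part of these cells in the difference was not tested. After a correction of each library for expression level the log2 difference went from 0.58 to 0.09, and the WT change from 0 to 6 h from 0.22 to 0.74, past the line. The later rises of Irg1 were smaller under this correction, with WT ratios to 0 h of 1.91 at 24 h and 1.93 at 48 h. In Arntl-/- cells the corrected ratios to 0 h were 1.503 at 6 h, barely past the line, 1.86 at 24 h and 1.69 at 48 h. The corrected ratio of Arntl-/- to WT was 1.19, 1.15 and 1.04 at 0, 24 and 48 h. The header gives a limit of 3 tags per position. Irg1 had 2.18, 5.88, 3.64 and 3.63 tags per exon base in WT and 3.15, 4.56, 5.35 and 3.47 in Arntl-/- cells, more than any other member in each library. The recovered reads did not keep to such a limit, since Lyz2 had 38826 on 1051 exon bases in WT cells at 6 h. How the limit was applied is not given in the sources used here, and its part in the values of Irg1 was not tested.

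**Figure D3:**
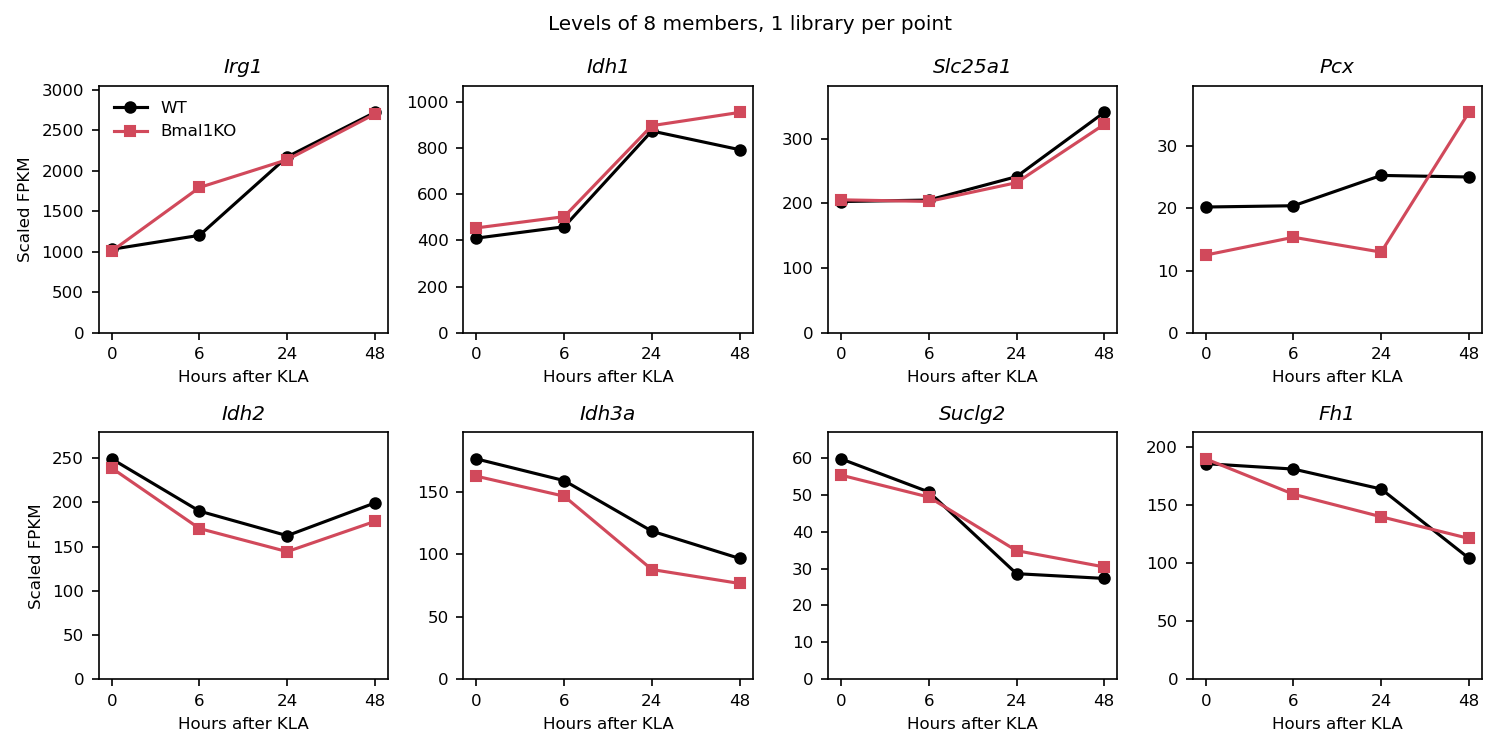
Scaled FPKM (y axis, from 0) against hours after KLA (x axis, at equal spacing) of the 7 members that changed at least 1.5-fold in both genotypes at the same time and of Pcx, with 1 library per point, WT in black and Arntl-/- (Bmal1KO) in red. The lines of the genotypes run close together for Slc25a1 and Suclg2, part at 6 h for Irg1, and cross between 24 and 48 h for Pcx.

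From citrate to 2-oxoglutarate the isocitrate dehydrogenases moved in opposite directions. Idh1, the NADP-dependent enzyme of the cytosol (chr1:65205190-65225716), had scaled FPKM of 410.3, 459.6, 875 and 794 over the WT time course and 455, 503, 899 and 956 over that of Arntl-/- cells. Both genotypes were low at 0 and 6 h and high at 24 and 48 h, with no overlap. Idh1 rose 2.13-fold (2.02 to 2.26) by 24 h in WT cells and 1.98-fold (1.89 to 2.07) in Arntl-/- cells, and stood 1.94-fold and 2.1-fold above 0 h at 48 h.

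Idh3a encodes the catalytic subunit of the NAD-dependent isocitrate dehydrogenase of the cycle (chr9:54434318-54452469). At 0, 6, 24 and 48 h it was at 176, 159, 118 and 96.6 in WT and at 162, 146, 87.7 and 76.5 in Arntl-/- cells, each value lower than the one before. By 48 h it had fallen 1.82-fold in WT cells (ratio to 0 h 0.548, interval 0.48 to 0.625) and 2.12-fold in Arntl-/- cells (0.472, 0.408 to 0.543). At 24 h the WT ratio was 0.672, just short of the line, and that of Arntl-/- cells 0.54. Idh2, the NADP-dependent enzyme of the matrix (chr7:87239734-87260236), was at 249, 190.1, 162 and 199 in WT and 239, 170.4, 144 and 178 in Arntl-/- cells. Both genotypes had their lowest value at 24 h, where Idh2 had fallen 1.53-fold and 1.65-fold, and at 48 h it was short of the line at 0.8 and 0.748 times its level at 0 h.

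The regulatory subunits of the NAD-dependent enzyme did not move with Idh3a. Idh3b stayed between 454 and 598 and Idh3g between 237 and 326. Within a library, where scaling cancels, Idh3b stood over Idh3a by 2.99, 2.86, 4.12 and 6.07 times in WT cells at the 4 times and by 3.29, 3.40, 6.18 and 7.82 times in Arntl-/- cells. The ratio of Idh1 to Idh3a went from 2.33 at 0 h to 8.23 at 48 h in WT cells and from 2.80 at 0 h to 12.5 at 48 h in Arntl-/- cells. Both ratios were higher at 24 and 48 h than at 0 and 6 h in each genotype.

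Cs, citrate synthase (chr10:127774888-127799535), was at 466, 489, 480.0 and 526 in WT and 496, 506, 506 and 538 in Arntl-/- cells, and no value was more than 1.15 times another. Irg1, at the branch after citrate, was at 2.21, 2.46, 4.53 and 5.18 times the level of Cs in WT cells and 2.03, 3.55, 4.22 and 5.02 times in Arntl-/- cells. Aco1, the cytosolic aconitase and iron regulatory protein, ranged from 105 to 144.

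**Figure D4:**
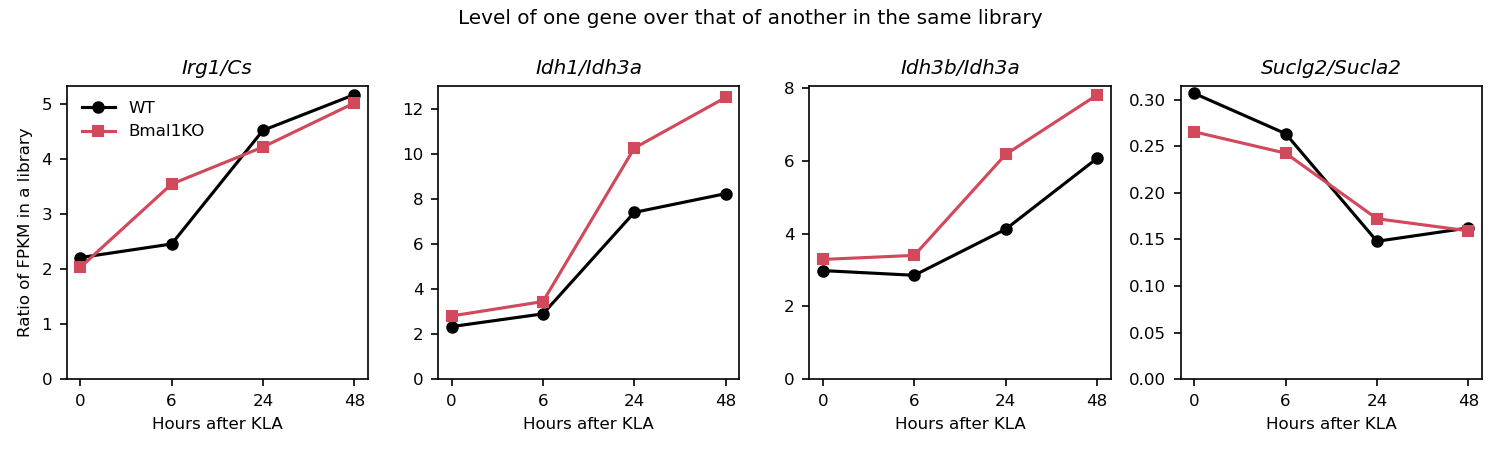
Ratio of the FPKM of 2 genes within the same library (y axis, from 0) against hours after KLA (x axis, at equal spacing), WT in black and Arntl-/- (Bmal1KO) in red. Irg1 over Cs, Idh1 over Idh3a and Idh3b over Idh3a stand higher at 24 and 48 h than at 0 h in both genotypes, and Suclg2 over Sucla2 stands lower.

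From 2-oxoglutarate to succinate Suclg2 alone of the 6 members moved past the line in any comparison. It encodes the GTP-specific beta subunit of succinyl-CoA ligase (chr6:95423003-95668840) and was at 59.8, 50.8, 28.6 and 27.3 in WT and 55.4, 49.4, 34.9 and 30.5 in Arntl-/- cells, from 124 to 844 reads. The values at 24 and 48 h lay below those at 0 and 6 h in both genotypes. Suclg2 had fallen 2.08-fold by 24 h (ratio 0.48, interval 0.397 to 0.575) and 2.18-fold by 48 h in WT cells, and 1.59-fold (0.631, 0.546 to 0.725) and 1.82-fold in Arntl-/- cells. Sucla2, the ATP-specific beta subunit, stayed between 169 and 209, and the ratio of Suclg2 to Sucla2 went from 0.307 at 0 h to 0.162 at 48 h in WT and from 0.265 at 0 h to 0.159 at 48 h in Arntl-/- cells. Suclg1, the alpha subunit that both enzymes share, had its lowest value, 178, in the WT library of 24 h and its highest, 273, in the Arntl-/- library of 0 h.

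In the 2-oxoglutarate dehydrogenase complex the range over the 8 libraries was 1.48-fold for Ogdh, 1.13-fold for Dlst and 1.15-fold for Dld. Ogdh, its first enzyme (chr11:6191600-6259097), was at 196, 172, 218 and 256 in WT and 174, 175, 183 and 227 in Arntl-/- cells, highest at 48 h in both. Dlst, the succinyltransferase, stayed between 332 and 376. Dld, the dihydrolipoamide dehydrogenase shared with the pyruvate complex, stayed between 311 and 358.

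From succinate to oxaloacetate 1 of 7 members moved past the line, and it did so at 48 h alone. At that time 14.3% of all genes were lower in WT and 16.7% in Arntl-/- cells. Fh1, fumarase (chr1:177531509-177555766), was at 185, 181, 164 and 104 in WT and 189.5, 159, 139.7 and 121 in Arntl-/- cells. It was lowest at 48 h in both, where it had fallen 1.78-fold in WT (ratio 0.562, interval 0.48 to 0.655) and 1.56-fold in Arntl-/- cells (0.639, 0.554 to 0.735). With the correction for expression level the Arntl-/- change of Fh1 was -0.56 on the log2 scale and no longer past the line.

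Succinate dehydrogenase, the enzyme that itaconate inhibits, kept its 4 subunits together. Sdha, the flavoprotein (chr13:74459703-74487688), was at 574, 487, 592 and 598 in WT and 516, 522, 549 and 633 in Arntl-/- cells. Within a library the highest of Sdha, Sdhb, Sdhc and Sdhd was 1.02 to 1.37 times the lowest. The iron-sulfur subunit Sdhb ranged from 412 to 625, and the membrane anchors Sdhc from 433 to 615 and Sdhd from 433 to 689. Sdhd had the largest change of the 4, 1.42-fold at 48 h in Arntl-/- cells and 1.37-fold in WT cells, short of the line. The malate dehydrogenases, mitochondrial Mdh2 and cytosolic Mdh1, also passed it in no comparison, and Mdh1 stayed between 322 and 394.

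Pyruvate entry held the one member past the line between WT and Arntl-/- cells. Pcx, pyruvate carboxylase (chr19:4510472-4621752), makes oxaloacetate from pyruvate and had the lowest mean level of the members. Over the 4 times its scaled FPKM was 20.2, 20.4, 25.3 and 25.1 for WT, from 177, 412, 175 and 138 reads, and 12.5, 15.4, 13.0 and 35.5 for Arntl-/- cells, from 161, 161, 134 and 188 reads. The Arntl-/- values of 0, 6 and 24 h lay below every WT value, and that of 48 h lay above every WT value. The ratio of Arntl-/- to WT cells was 0.619 at 0 h (0.496 to 0.769), 0.753 at 6 h (0.622 to 0.904), 0.514 at 24 h (0.406 to 0.645) and 1.41 at 48 h (1.13 to 1.78). Within Arntl-/- cells Pcx rose 2.82-fold (2.29 to 3.53) from 0 to 48 h, while in WT cells the ratio was 1.24 (0.985 to 1.56). The ratios at 0 and 24 h also passed the line as deposited, with upper-quartile scaling and with the correction for expression level. Of all genes analyzed 43 had a lower ratio of Arntl-/- to WT at 24 h. The summed stromal markers in Arntl-/- cells were also below those of WT at 0 h (500.1 against 667), 6 h (536 against 768) and 24 h (545 against 835), and from 0 to 48 h they went up to 961 in Arntl-/- cells, as Pcx did. At 48 h they were still below the 1682 of WT cells, whereas Pcx was above. Their part in the values of Pcx was not tested.

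The pyruvate dehydrogenase subunits did not share this. Pdha1, the alpha subunit of its first enzyme (chrX:156560151-156576268), was at 283, 253, 252 and 246 in WT and 264, 271, 234 and 185 in Arntl-/- cells, lowest in Arntl-/- cells at 48 h, where its ratio to 0 h of 0.7 was short of the line. Under the values as deposited and under upper-quartile scaling it passed. On mm9, 603 bases or 16.4% of the exon sequence of Pdha1 overlap exons of Map3k15 on the other strand, and the counts did not use strand. Map3k15 was at 35.5 to 68.3 and lowest in the same library. Pdhb, the beta subunit, ranged from 294 to 372, and Dlat, the acetyltransferase, from 106 to 138.

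Citrate export and the malic enzymes held 1 member that rose in both genotypes, against 10.5% of all genes. Slc25a1, the mitochondrial citrate carrier (chr16:17925304-17928312), was at 203, 205, 241 and 341 in WT and 206, 203, 232 and 322 in Arntl-/- cells. The values at 48 h lay above all others, 1.68-fold (1.52 to 1.86) over 0 h in WT and 1.57-fold (1.42 to 1.73) in Arntl-/- cells. The call in Arntl-/- cells was lost with the values as deposited, at 0.48 on the log2 scale, and narrowly with upper-quartile scaling, at 0.577. Acly, which splits the exported citrate into acetyl-CoA and oxaloacetate in the cytosol (chr11:100337666-100389314), was at 365, 347, 342 and 311 in WT and 339.9, 378, 346 and 302 in Arntl-/- cells. In each genotype it was lowest at 48 h, where the ratio to 0 h was 0.853 in WT and 0.887 in Arntl-/- cells. The ratio of Acly to Slc25a1 went from 1.80 at 0 h to 0.913 at 48 h in WT and from 1.65 at 0 h to 0.936 at 48 h in Arntl-/- cells.

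Me1, the cytosolic malic enzyme, ranged from 46.1 to 79.3. Its ratio at 48 h to 0 h was 1.49 in WT and 1.43 in Arntl-/- cells, just short of the line, which it passed in both with the correction for expression level. Me2, the mitochondrial malic enzyme, was at 145, 138, 111 and 105 in WT and 164, 139, 112 and 94.6 in Arntl-/- cells. It had fallen 1.74-fold by 48 h in Arntl-/- cells, and in WT cells the ratio of 0.725 was short of the line and passed it as deposited.

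None of the 5 carriers, aminotransferases and glutamate dehydrogenase passed the line. Slc25a10, the dicarboxylate carrier (chr11:120353151-120362475), was at 177, 169, 172 and 174 in WT and 153, 179.7, 159.7 and 176 in Arntl-/- cells. Slc25a11, the 2-oxoglutarate and malate carrier, ranged from 336 to 459.7. The aspartate aminotransferases Got1, cytosolic, and Got2, mitochondrial, ranged from 94.4 to 113 and from 286 to 373. Got2 has an annotated copy named as a pseudogene, Got2-ps1, and how reads shared with it were counted is not given in the sources used here. Glud1, which releases 2-oxoglutarate from glutamate, was highest at 700.0, in the untreated WT library, and lowest at 431, in the Arntl-/- library of 48 h. Its ratio at 48 h to 0 h was 0.731 in WT and 0.74 in Arntl-/- cells, short of the line, and passed it in both as deposited and with the correction for expression level.

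Between the genotypes the counts of members past the line were 0 or 1 in each direction, near what the shares of all genes would give for 34 genes. At 0 h none was higher in Arntl-/- cells, against 2.18% of all genes, and 1 was lower, Pcx, against 1.58%. At 6 h none was higher, against 1.88%, and none lower, against 1.78%. At 24 h none was higher, against 2.61%, and Pcx alone was lower, against 2.2%. At 48 h none was higher, against 4.27%, and none lower, against 4.91%. Past the line at 2 or more times the same way was 1 member, Pcx, against 2.55% of all genes. The median log2 ratio of the members was -0.06, 0.04, -0.02 and -0.00 at 0, 6, 24 and 48 h, against -0.02, 0.01, -0.00 and -0.02 for all genes analyzed.

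**Figure D5:**
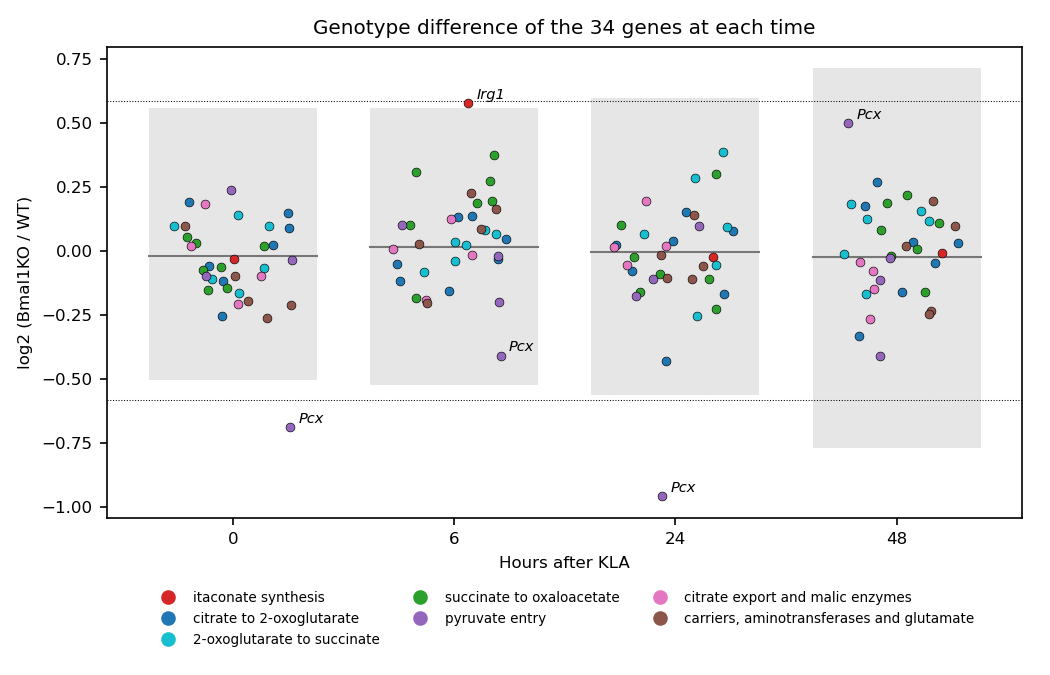
Log2 ratio of Arntl-/- (Bmal1KO) to WT for the 34 members (y axis) at each time after KLA (x axis, at equal spacing, points spread sideways), colored by role, over a grey band that holds the central 95% of all genes analyzed with their median as a line. Dotted lines mark 1.5-fold. Pcx lies below the band at 0 and 24 h and within it at 48 h, and Irg1 at 6 h lies above the band, just under the dotted line.

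Small differences that kept their sign were counted next. In Arntl-/- cells 6 members lay above WT at all 4 times, Cs, Idh1, Idh3b, Suclg1, Sucla2 and Sdhc, against 7.82% of all genes, and 3 lay below it, Idh2, Idh3a and Dlat, against 7.53%. These shares, 6 and 3 of 34, rest on few genes. The differences were small. For Idh1 the log2 ratios at 0, 6, 24 and 48 h were 0.15, 0.13, 0.04 and 0.27, and for Cs they were 0.09, 0.05, 0.08 and 0.03. Idh3a, the widest of those below, was at -0.12, -0.12, -0.43 and -0.34. The sign rests on the scale. Each of the 6 members above WT turned below it at 6 h under at least 1 of the values as deposited, upper-quartile scaling and the correction for expression level, and Cs and Suclg1 did so under all 3. At 6 h Cs was at -0.09 as deposited and -0.16 with the correction, and Idh1 was at -0.14 with the correction. Idh2 and Dlat turned above WT at 0 h as deposited, and Idh3a alone of the 9 kept its sign at all 4 times under these 3 scalings.

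Genes around the cycle were looked at in 6 further lists, of which 43 genes were measured and 30 passed the filter. From 0 to 48 h 2 of the 30 rose and 6 fell in WT cells, and 5 rose and 3 fell in Arntl-/- cells. The shares of all genes were 12.7% and 14.3% in WT and 14.8% and 16.7% in Arntl-/- cells. In both genotypes at the same time 3 of the 30 rose and 2 fell, beside 10.5% and 11.4% of all genes, so these counts were not far from the background, and none differed between genotypes at 2 or more times the same way. At a single time Clybl was lower in Arntl-/- cells at 0 h (55.1 against 85.8), Slc25a22 higher (165 against 105) and Slc7a5 lower (13.6 against 30.5) at 24 h, and Sdhaf1 higher at 48 h (79.1 against 45.9). The call of Clybl was lost as deposited, at -0.56 on the log2 scale. These 4 were named after their values were seen. Slc1a5, a glutamine transporter of the plasma membrane, was at 253, 257, 151 and 108 in WT and at 285, 223, 153 and 119 in Arntl-/- cells, and by 48 h had fallen 2.34-fold and 2.40-fold. Slc25a13, an aspartate and glutamate carrier of the mitochondrion, was at 80.5, 46.8, 35.8 and 30.7 and at 58.1, 43.2, 31.3 and 25.6, and had fallen 2.62-fold and 2.26-fold. Both had fallen in each genotype by 24 h as well.

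A transaminase and 2 transcription factors rose. Gpt2, mitochondrial alanine transaminase, was at 20.8, 31.5, 32.0 and 33.5 in WT and 24.2, 24.2, 36.1 and 37.2 in Arntl-/- cells and had risen 1.61-fold and 1.53-fold by 48 h. Hif1a, the hypoxia-inducible factor that succinate is known to stabilize, was at 254, 275, 481 and 461 and 274, 293, 516 and 563, 1.89-fold and 1.88-fold over 0 h at 24 h. Nfe2l2, which encodes the antioxidant factor Nrf2 that itaconate is known to activate, was at 578, 569, 933 and 827 and 638, 679, 959 and 1062, 1.61-fold and 1.5-fold over 0 h at 24 h. The calls of Gpt2 at 48 h and Nfe2l2 at 24 h in Arntl-/- cells were lost as deposited, at 0.44 and 0.52 on the log2 scale, and with upper-quartile scaling, at 0.54 each, and that of Gpt2 at 48 h in WT cells as deposited, at 0.55. The call of Nfe2l2 was also lost with the correction for expression level, at 0.46, while Hif1a passed in both genotypes at 24 and 48 h under all 3.

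By list, the 7 analyzed genes of pyruvate dehydrogenase control (the kinases Pdk1 and Pdk3 and the phosphatases Pdp1 and Pdp2 among them) held none that passed in both genotypes. Of 5 pyruvate and malate carriers 1 fell, Slc25a13, and the mitochondrial pyruvate carriers Mpc1 and Mpc2 stayed within the line in WT cells at all times, while Mpc1 rose 1.56-fold by 48 h in Arntl-/- cells, a call lost as deposited, at 0.47 on the log2 scale, and with upper-quartile scaling, at 0.57. Of 7 genes of glutamine and amino acid entry 1 rose, Gpt2, and 1 fell, Slc1a5. None of 4 genes of propionate entry and none of 2 assembly factors of succinate dehydrogenase passed in both, and of 5 other genes 2 rose, Hif1a and Nfe2l2.

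The scale moved the direction of the calls over all genes. Of genes past 1.5-fold between genotypes, 57.9%, 51.4% and 54.3% were higher in Arntl-/- cells at 0, 6 and 24 h, and 76.8%, 12.9% and 66.3% as deposited. From 0 to 6 h 56.7% of those called in WT cells and 51.9% in Arntl-/- cells were higher, and 91.5% and 36.0% as deposited. From 0 to 48 h the share was 47.0% in each genotype, and 31.6% in WT and 29.1% in Arntl-/- cells as deposited. Upper-quartile scaling gave 23.0% between genotypes at 6 h, and 74.9% and 35.6% for WT and Arntl-/- cells from 0 to 6 h, and the correction for expression level gave 65.1% for Arntl-/- cells there. As deposited, the median log2 change of all genes was 0.12 in WT cells at 6 h, -0.13 in WT and -0.18 in Arntl-/- cells at 48 h, and -0.12 between genotypes at 6 h. The members then stood at 3 higher and 5 lower in WT cells at 48 h, with Glud1 and Me2 gained. In Arntl-/- cells at 48 h they stood at 3 higher and 7 lower, with Idh2, Pdha1 and Glud1 gained and Slc25a1 lost.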

How the data were processed

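RNA from BMDMs of 2 genotypes at 4 times was sequenced, 1 library per condition, 8 of the 37 samples of the series. Per the labels and the file header, the authors aligned reads with STAR to mm9 and counted exon reads of 1 transcript per gene with HOMER, on both strands, with at most 3 tags per position. The deposited values are FPKM per 10000000 reads. Whole reads were recovered from them within 0.1 of a read, 8587560 to 27036784 per library, and set the counting intervals (exact binomial, 95%). The labels also name another normalization of counts, whereas the header gives scaling by HOMER. A row without values and 4 value columns of no sample used here were left out.

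Here each library was scaled by the median of its ratios to the mean profile, and differences were taken on log2(FPKM + 0.1). The 9720 genes with the highest scaled FPKM times kb in any WT library were kept, down to a value of 74.5. With 1 library per condition no test was made. The study's 1.5-fold line was used, and steps were tested on simulated data. Alternatives were upper-quartile scaling, no scaling beyond that of the deposited values, corrections for expression level and gene length, pseudocounts of 1 and 0.01, a 2-fold line, a filter at a mean FPKM of 1, and leaving out the 6 h or 48 h pair. Named were all members, with all 8 values for those past the line in both genotypes, those past it between genotypes at 2 or more times, and the first of each role. The rule for the members used names and no values, but members and lists were chosen with earlier results of these data known. Tools were pandas 2.3.3, numpy 2.4.6, statsmodels 0.14.6, scipy 1.17.1 and matplotlib 3.10.9 in Python 3.11.15. ChIP-seq samples were not analysed here.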

Additional observations from a re-analysis of the deposited data

How the results depend on the processing

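Against a 2-fold line in place of 1.5-fold, the count of members was 0 between genotypes at 0 h, 0 between genotypes at 24 h, 2 for WT cells from 0 to 48 h, 0, 1 and 4 for Arntl-/- cells from 0 to 6, 24 and 48 h, and 1 the same way in both genotypes. With the correction for expression level 1 member, Irg1, passed in WT cells from 0 to 6 h, and the median of the members minus that of all genes from 0 to 48 h in Arntl-/- cells turned from 0.11 to -0.0318 on the log2 scale. Leaving out the 48 h pair, chosen after seeing the data, gave 4 members the same way in both genotypes in place of 7. The cause of the turn was not tested. Of the other alternatives, 78 counts stayed within 1.5 times the main count, and 69 medians kept their sign or moved by less than 0.1. The count of members above or below WT at all 4 times was 9, 7 or 8 under the other scalings and corrections, and 13 without the 6 h pair and 11 without the 48 h pair, where fewer times had to agree. A fit of genotype with time as a block, which would take the 4 times as repeats, was not run. Suclg2 and Pcx had the fewest reads, from 124 and from 134 in a library.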
